A study of Mus musculus with 12 samples.

Results

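The 48 genes described here encode the enzymes of central carbohydrate metabolism, and were taken from the deposited count table by their gene symbols. The list of genes was chosen with earlier results of these data known. They comprise 18 genes of glycolysis, 7 of the pentose phosphate pathway and 23 of pyruvate entry and the tricarboxylic acid (TCA) cycle. All 48 were among the 12960 genes of the table, and all 48 passed the filter on low counts, which left 10822 genes for testing. The libraries came from primary bone marrow-derived macrophages (BMDMs), grown from tibial and femoral marrow in L929-conditioned medium as a source of M-CSF. The marrow was from wild-type (WT) mice or from mice lacking AMPKβ1 throughout the body (AMPKβ1-/-). Cells received 0.1% DMSO as vehicle or 10 μM PF-06409577 (PF), an activator of AMPK complexes that contain the β1 subunit, for 6 h. There were 3 libraries in each of the 4 groups. The labels do not say whether the libraries of a group came from separate mice or cultures, so p-values measure the spread between these libraries, which may be technical.

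Glycolysis splits glucose into pyruvate in the cytosol, and lactate dehydrogenase turns pyruvate into lactate. The pentose phosphate pathway branches off at glucose 6-phosphate and supplies NADPH and ribose, and pyruvate dehydrogenase feeds the TCA cycle, which runs in mitochondria. Macrophages raise glycolysis and interrupt the TCA cycle on inflammatory activation, whereas AMPK senses falling cellular energy and can phosphorylate Pfkfb3, an enzyme that makes the allosteric activator of phosphofructokinase. The data give mRNA levels of the enzymes, not enzyme activity or flux.

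Library depth, as the sum of gene counts, ran from 8935609 to 14358180. Prkab1, which encodes AMPKβ1, stood at no less than 37.3 CPM (the count scaled to a common library size) in a WT library and at no more than 9.42 CPM in an AMPKβ1-/- library. All 8 macrophage markers examined were tested, with summed levels of 25191 to 29681 CPM over all libraries. The deposited table held 4 of 5 dendritic cell, 4 of 6 granulocyte, 2 of 6 erythroid and 0 of 7 lymphoid markers. None of those present passed the filter, and markers missing from the table could not be examined. The summed level of the 6 fibroblast markers was 2.87 to 10.4 CPM in the AMPKβ1-/- vehicle group and at most 3.18 CPM elsewhere. The relation of counts to transcript GC content was not the same in every library. Its slope, in log2 units per 10 percentage points of GC, was 0.36 to 0.72 in the WT vehicle libraries, −0.051 to 0.37 in the WT PF libraries, −0.36 to −0.10 in the AMPKβ1-/- vehicle libraries and −0.51 to −0.33 in the AMPKβ1-/- PF libraries. The slopes thus moved with genotype and with PF, and for most tests below the values are therefore also given from a fit with the trend in GC content and transcript length removed from each library (GC and length offset). The share of a difference that belongs to this trend and not to the cells was not tested.

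Glycolytic mRNAs were the most abundant of the 3 pathways in every group. The summed level of the 18 genes was 12886 ± 1454 CPM (SD, n = 3) in WT vehicle BMDMs, against 3055 ± 279 CPM for the 7 pentose phosphate genes and 1955 ± 82.6 CPM for the 23 genes of pyruvate entry and the TCA cycle. A few transcripts made up most of the first sum. Pkm (pyruvate kinase), Aldoa (aldolase), Gapdh (glyceraldehyde 3-phosphate dehydrogenase) and Eno1 (enolase) together held 66.9% of it. In the pentose phosphate pathway Pgd (6-phosphogluconate dehydrogenase) and Tkt (transketolase) held 60.4%. Of the 23 genes of pyruvate entry and the TCA cycle, called TCA genes below, the top 4, Ogdh, Cs, Mdh2 and Idh1, held 44.0%. These 23 also include enzymes of the cytosol, Idh1 among them. Per kilobase of the longest transcript, which allows genes to be compared, WT vehicle levels ran from 1538 CPM per kb for Aldoa to 1.29 CPM per kb for Rpe (ribulose-phosphate 3-epimerase). The next lowest were Me1 (cytosolic malic enzyme) at 1.65 CPM per kb and Pcx (pyruvate carboxylase) at 2.17 CPM per kb. Reads of Gapdh, Pgk1, Ldha, Pgam1, Eno1, Aldoa, Tpi1 and Pkm can be shared with processed pseudogenes or close paralogs, so their levels are less certain than those of the other members.

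The summed glycolytic level was lower in every other group than in WT vehicle BMDMs, at 10549 ± 944 CPM with PF in WT, 9155 ± 690 CPM in AMPKβ1-/- with vehicle and 8493 ± 226 CPM in AMPKβ1-/- with PF. All libraries of these 3 groups lay below the lowest WT vehicle library, at 11660 CPM. In RNA from whole cultures, fewer cells of a kind and less RNA per cell cannot be told apart. Pentose phosphate sums followed the same order, at 2536 ± 244, 2315 ± 121 and 2115 ± 70.1 CPM. The TCA sums separated the genotypes but not the treatments, at 1948 ± 77.0 CPM with PF in WT, 1715 ± 89.1 CPM in AMPKβ1-/- with vehicle and 1708 ± 37.6 CPM in AMPKβ1-/- with PF. As a share of all counts, which uses no scaling factor, the TCA genes took 0.179% ± 0.0040 in WT vehicle and 0.181% ± 0.010 in AMPKβ1-/- vehicle BMDMs, and the glycolytic genes 1.17% ± 0.093 and 0.967% ± 0.063. The ratio of summed glycolytic to TCA counts in a library, which needs no scaling factor, was 6.58 ± 0.53 in WT vehicle, 5.41 ± 0.32 in WT PF, 5.36 ± 0.65 in AMPKβ1-/- vehicle and 4.98 ± 0.24 in AMPKβ1-/- PF BMDMs. The WT vehicle libraries, at 6.03 to 7.08, lay above all WT PF libraries, while AMPKβ1-/- vehicle library 1, at 6.11, overlapped them. The sums, shares and ratio were not corrected for the trend in GC content. The median GC content was 54.1% for the glycolytic and 47.7% for the TCA transcripts, so the ratio can move with a library's GC slope. How much of the ratio belongs to that slope was not tested.

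**Figure D1:**
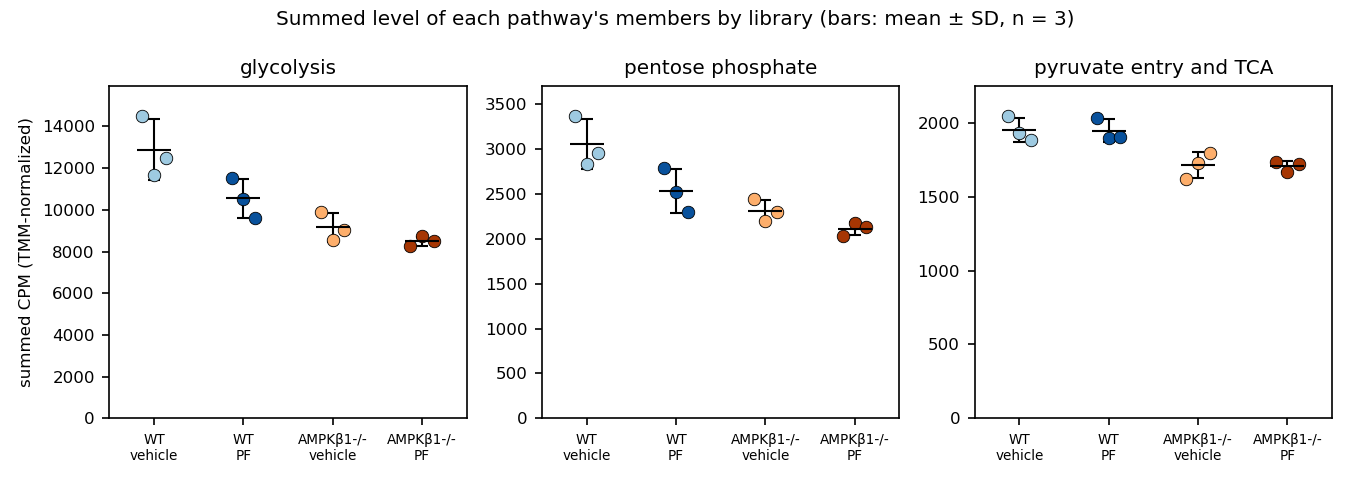
Summed CPM (y axis, TMM-normalized, from 0) of the genes of each pathway in the 4 groups (x axis). Points are libraries and bars the mean ± SD of 3 libraries. The glycolytic sum falls from 12886 CPM in WT vehicle to 8493 CPM in AMPKβ1-/- PF BMDMs, and the TCA sum from 1955 to 1708 CPM.

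The first comparison asked how the enzymes differed between genotypes without drug. In AMPKβ1-/- vehicle BMDMs, 8 of the 48 genes were higher and 28 lower than in WT at an adjusted p below 0.05. Of all genes tested, 29.7% were higher and 30.0% lower. Glycolysis held 1 higher and 15 lower genes of 18, with a median log2 fold change of −0.48, against −0.03 over all genes tested. The pentose phosphate pathway held 1 higher and 4 lower genes of 7, with a median of −0.29. Pyruvate entry and the TCA cycle held 6 higher and 9 lower genes of 23, with a median of −0.09. Scaling by library size alone moved the 3 medians to −0.27, −0.08 and 0.12, so the last changed sign. The 3 libraries of each genotype did not overlap for 33 of the 48 genes, against 62.9% of all genes tested. Most differences were small. Of the 48 genes, 3 rose by more than 0.8 on the log2 scale (16.1% of all genes tested) and none fell by more than 0.8 (1.76%). With the GC and length offset, 3 members were higher and 18 lower, against 14.5% and 20% of all genes, and 16 of the 36 calls were kept. Scaling by library size alone raised the median of all genes from −0.03 to 0.18 and gave 12 higher and 16 lower members, against 39.7% and 14.8% of all genes.

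Among the glycolytic genes, Hk3, a hexokinase of myeloid cells, had the smallest p. Hk3 stood at 390, 367 and 406 CPM in the WT vehicle libraries and at 241, 226 and 224 CPM in the AMPKβ1-/- vehicle libraries. No library of either group reached the other. On the log2 scale the difference was −0.75 ± 0.089 (SE, adjusted p = 2.94e-05) and −0.39 (adjusted p = 4.99e-05) with the offset. Gapdh stood at 1874, 1430 and 1398 CPM in WT and at 975, 944 and 895 CPM in AMPKβ1-/- BMDMs. This was a log2 difference of −0.74 ± 0.10 (adjusted p = 6.97e-05), and −0.30 (adjusted p = 0.00486) with the offset. Gpi1, the glucose 6-phosphate isomerase, was lower by a similar step, from 1134, 877 and 913 CPM to 655, 574 and 606 CPM. The fitted log2 difference was −0.67 ± 0.097 (adjusted p = 9.16e-05), and −0.39 (adjusted p = 0.000255) with the offset. For all 3 genes the groups were apart and both fits passed the threshold.

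Hk2, an inducible hexokinase of the mitochondrial surface, was the one glycolytic gene called higher. It stood at 35.7, 37.3 and 53.3 CPM in WT and at 67.5, 51.7 and 47.3 CPM in AMPKβ1-/- vehicle BMDMs, so the groups overlapped. The log2 fold change was 0.40 ± 0.16 (adjusted p = 0.0402), and 0.41 (adjusted p = 0.0198) with the offset. The call was lost on removal of WT vehicle library 1 or 2, WT PF library 2 or AMPKβ1-/- vehicle library 1 or 2, with adjusted p-values up to 0.19, and in the fit to the libraries of this contrast alone. Per kilobase, Hk2 made up 4.05% ± 0.69 of the mRNA of the 3 hexokinase genes in WT vehicle and 8.11% ± 0.94 in AMPKβ1-/- vehicle BMDMs, and Hk3 made up 64.2% ± 1.5 and 58.0% ± 1.8.

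The last steps of glycolysis were lower by smaller amounts. Ldha, which makes lactate, stood at 882, 751 and 772 CPM in WT and at 588, 552 and 610 CPM in AMPKβ1-/- vehicle BMDMs. On the log2 scale the difference was −0.46 ± 0.094 (adjusted p = 0.000814), and −0.23 (adjusted p = 0.0118) with the offset. Pkm stood at 3605, 2915 and 3316 CPM in WT and at 2906, 2262 and 2526 CPM in AMPKβ1-/- vehicle BMDMs. This was a log2 difference of −0.35 ± 0.10 (adjusted p = 0.00845), but 0.060 (adjusted p = 0.444) with the offset, and removal of AMPKβ1-/- vehicle library 2 also ended the call (adjusted p = 0.0567). The remaining called genes were Hk1, Pfkm, Pfkp, Pfkfb4, Aldoa, Tpi1, Pgk1, Pgam1, Eno1 and Ldhb, with log2 fold changes of −0.69 to −0.29. Of these 10, Aldoa, Pgam1, Eno1 and Ldhb lost the call with the offset, and Pgam1 changed sign. Pfkl (−0.28, adjusted p = 0.052) and Pfkfb3 (−0.0086, adjusted p = 0.954) did not pass.

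In the pentose phosphate pathway, Tkt and Pgls (6-phosphogluconolactonase) had the smallest p. Tkt, which links the pathway back to glycolysis, stood at 880, 763 and 790 CPM in WT and at 527, 461 and 509 CPM in AMPKβ1-/- vehicle BMDMs. The fitted log2 difference was −0.70 ± 0.096 (adjusted p = 6.80e-05), and −0.42 (adjusted p = 8.15e-05) with the offset. Pgls stood at 229, 188 and 180 CPM in WT and at 125, 112 and 119 CPM in AMPKβ1-/- vehicle BMDMs, a log2 fold change of −0.75 ± 0.11 (adjusted p = 0.000118). With the offset Pgls gave −0.32 (adjusted p = 0.00145). These 2 genes thus fell in both fits.

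The NADPH-producing dehydrogenases of the pathway were less clear. G6pdx, which commits glucose 6-phosphate to the pathway, stood at 493, 400 and 424 CPM in WT and at 366, 349 and 358 CPM in AMPKβ1-/- vehicle BMDMs. Its log2 fold change was −0.29 ± 0.088 (adjusted p = 0.00963), and −0.043 (adjusted p = 0.62) with the offset, and removal of WT vehicle library 1 gave an adjusted p of 0.0587. Pgd stood at 1139, 908 and 1053 CPM in WT and at 912, 746 and 759 CPM in AMPKβ1-/- vehicle BMDMs, with groups that touched at 908 and 912 CPM. On the log2 scale the difference was −0.36 ± 0.097 (adjusted p = 0.00521), and −0.024 (adjusted p = 0.807) with the offset. The nonoxidative enzymes Taldo1 (−0.12, adjusted p = 0.252) and Rpia (0.065, adjusted p = 0.656) did not pass, although both were called higher with the offset, at 0.23 and 0.31.

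Rpe, the gene of lowest level per kilobase among the 48, had one of the largest differences. It stood at 2.25, 4.80 and 3.48 CPM in WT and at 5.65, 9.46 and 7.53 CPM in AMPKβ1-/- vehicle BMDMs, from 21 to 145 counts per library. This was a log2 difference of 1.10 ± 0.28 (adjusted p = 0.00415). With the offset it was −0.033 (adjusted p = 0.916). Rpe also has the lowest GC content of the 48 transcripts, at 39.1%.

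Pyruvate entry and the TCA cycle moved in both directions. Ogdh, the catalytic subunit of the 2-oxoglutarate dehydrogenase complex, stood at 293, 253 and 276 CPM in WT and at 207, 190 and 196 CPM in AMPKβ1-/- vehicle BMDMs. The fitted log2 difference was −0.47 ± 0.077 (adjusted p = 0.000188), and −0.32 (adjusted p = 0.00034) with the offset. Idh3g, a regulatory subunit of NAD-dependent isocitrate dehydrogenase, stood at 163, 139 and 129 CPM in WT and at 94.6, 95.1 and 97.8 CPM in AMPKβ1-/- vehicle BMDMs. The log2 fold change of Idh3g was −0.58 ± 0.089 (adjusted p = 0.000125), and −0.31 (adjusted p = 0.000851) with the offset. Cs, the citrate synthase that opens the cycle, stood at 260, 237 and 244 CPM in WT and at 194, 185 and 191 CPM in AMPKβ1-/- vehicle BMDMs, with a log2 fold change of −0.38 ± 0.072 (adjusted p = 0.000477). With the offset Cs gave −0.25 (adjusted p = 0.00226). These were the only 3 of the 9 lower genes of this group that kept the call with the offset. Aco1, Idh2, Idh3b, Dlst, Suclg1 and Mdh2, at −0.44 to −0.20, lost it.

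None of the 6 higher genes of this group kept the call with the offset. Dld, the subunit shared by the pyruvate and 2-oxoglutarate dehydrogenase complexes, stood at 7.59, 18.1 and 16.2 CPM in WT and at 24.2, 35.5 and 33.2 CPM in AMPKβ1-/- vehicle BMDMs. On the log2 scale the difference was 1.14 ± 0.25 (adjusted p = 0.00172), and 0.17 (adjusted p = 0.384) with the offset. Idh1, the cytosolic NADP-dependent isocitrate dehydrogenase, stood at 146, 165 and 141 CPM in WT and at 172, 219 and 236 CPM in AMPKβ1-/- vehicle BMDMs. This was a log2 difference of 0.47 ± 0.12 (adjusted p = 0.0033), and −0.13 (adjusted p = 0.187) with the offset. Me1 stood at 4.92, 5.35 and 6.07 CPM in WT and at 7.93, 8.54 and 8.91 CPM in AMPKβ1-/- vehicle BMDMs, with 0.63 ± 0.14 (adjusted p = 0.0017) and 0.16 (adjusted p = 0.426) with the offset. Sucla2 (0.94), Pdha1 (0.56) and Idh3a (0.42) were the others. Idh3a, the catalytic partner of Idh3g, stood at 10.2, 16.2 and 12.8 CPM in WT and at 14.6, 16.2 and 22.2 CPM in AMPKβ1-/- vehicle BMDMs, and its groups overlapped. With the offset alone, Pdk1 (−0.32), Suclg2 (−0.30) and Mdh1 (−0.66) were called lower.

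**Figure D2:**
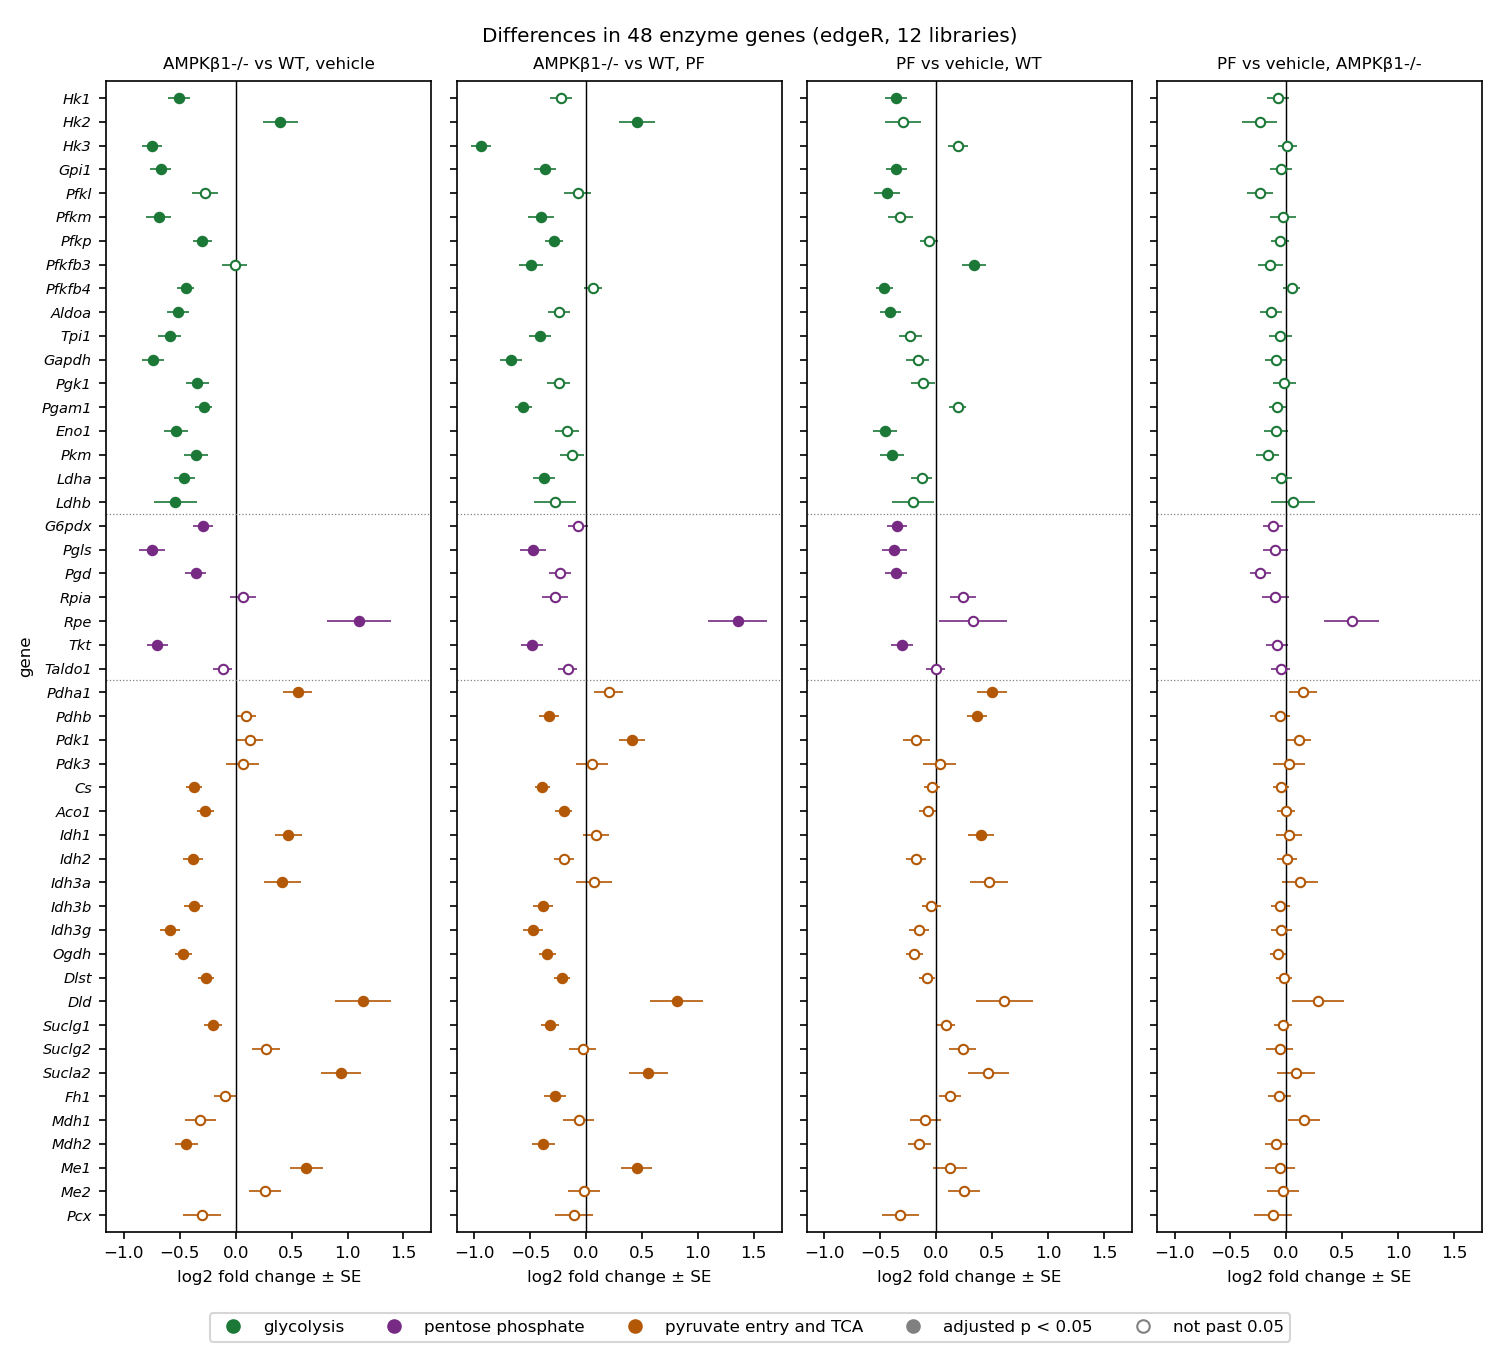
Log2 fold change ± SE (x axis) of the 48 genes (y axis) in 4 comparisons, from edgeR over 12 libraries. Filled points passed an adjusted p of 0.05. Filled glycolytic points lie left of 0 for all genes but Hk2 in the 2 genotype panels, and no point is filled in the panel of PF in AMPKβ1-/- BMDMs.

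The differences followed GC content among these enzymes as they did among all genes tested. Across the 48 genes the Spearman correlation of log2 fold change with transcript GC content was −0.78 for AMPKβ1-/- against WT with vehicle and −0.18 with the offset. It was −0.49 and −0.039 with PF, and for PF against vehicle −0.79 and −0.32 in WT. Over all genes tested the correlation without the offset was −0.76, −0.56 and −0.71 in the same order. These are descriptions over genes that share all libraries. The offset removes the trend with GC content by design, so weaker correlations with it are not a separate result. The median GC content was 54.1% for the glycolytic, 53.6% for the pentose phosphate and 47.7% for the TCA transcripts, against 50.1% for all genes tested. The pathways thus differed in the very property that the libraries differed in. With the offset the medians for AMPKβ1-/- against WT with vehicle were −0.22 for glycolysis, −0.033 for the pentose phosphate pathway and −0.035 for TCA genes, against −0.016 for all genes.

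**Figure D3:**
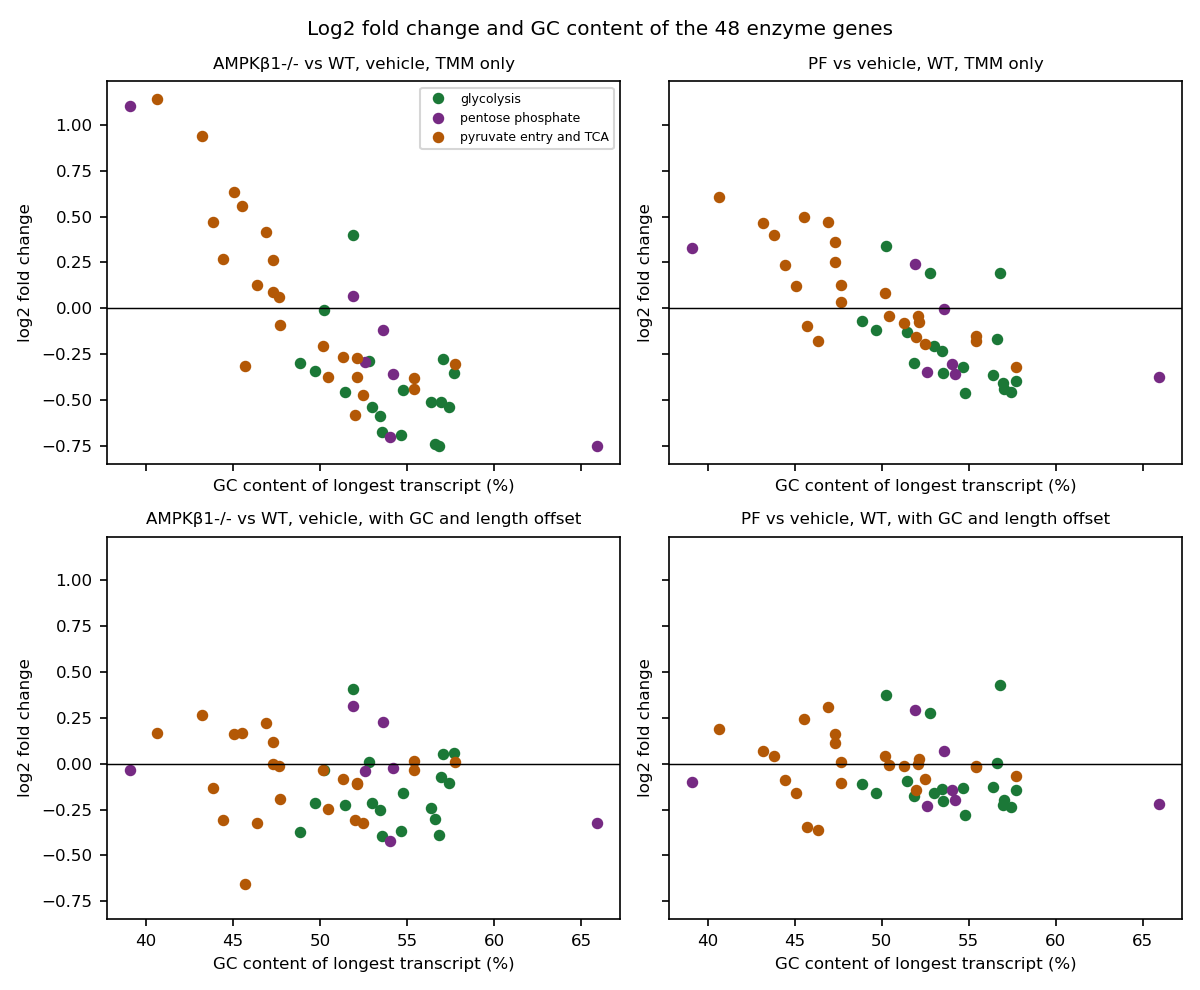
Log2 fold change (y axis) of the 48 genes against the GC content of the longest transcript (x axis, %), without (top) and with (bottom) the GC and length offset. The points slope downward at the top (Spearman −0.78 and −0.79) and much less at the bottom (−0.18 and −0.32). The offset used at the bottom removes this trend by design.

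The second comparison set the genotypes side by side in the presence of PF. Here 6 of the 48 genes were higher and 21 lower in AMPKβ1-/- BMDMs, against 24.1% and 22.9% of all genes tested. Glycolysis held 1 higher and 9 lower genes (median −0.28), the pentose phosphate pathway 1 higher and 2 lower (−0.23), and TCA genes 4 higher and 10 lower (−0.10). Scaling by library size alone moved the 3 medians to −0.13, −0.08 and 0.04, where the median of all genes was 0.15. Libraries of the genotypes did not overlap for 33 of the 48 genes, against 59.9% of all genes. Differences above 0.8 on the log2 scale were seen for Rpe and Dld (12.2% of all genes were so much higher), and Hk3 alone was lower by more than 0.8 (2.06%). With the offset 3 were higher and 15 lower, against 16.6% and 21.2% of all genes, and 14 of the 27 calls were kept. The offset medians were −0.14, −0.022 and −0.075 for the 3 pathways in the same order. Scaling by library size alone gave 7 higher and 14 lower members, against 31.8% and 12.6% of all genes.

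Hk3 stood at 495, 449 and 385 CPM in the WT PF libraries and at 234, 243 and 218 CPM in the AMPKβ1-/- PF libraries. Its log2 fold change of −0.94 ± 0.089 (adjusted p = 2.17e-06) was −0.76 (adjusted p = 7.80e-09) with the offset. Gapdh stood at 1438, 1442 and 1311 CPM in WT and at 852, 837 and 947 CPM in AMPKβ1-/- PF BMDMs. The values for Gapdh were −0.67 ± 0.10 (adjusted p = 0.000126) and −0.34 (adjusted p = 0.00161) with the offset. Pgam1, the phosphoglycerate mutase, stood at 543, 525 and 485 CPM in WT and at 337, 374 and 343 CPM in AMPKβ1-/- PF BMDMs. It fell by 0.56 ± 0.078 on the log2 scale (adjusted p = 6.33e-05), and by 0.31 (adjusted p = 9.60e-05) with the offset. In all 3 genes the WT PF libraries stood apart from the AMPKβ1-/- PF libraries.

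In the cycle, Cs stood at 256, 236 and 228 CPM in WT PF and at 192, 176 and 183 CPM in AMPKβ1-/- PF BMDMs, with −0.39 ± 0.072 (adjusted p = 0.000559) and −0.27 (adjusted p = 0.000853) with the offset. Idh3g stood at 139, 126 and 121 CPM and at 91.5, 97.1 and 90.2 CPM, with −0.47 ± 0.089 (adjusted p = 0.000693) and −0.17 (adjusted p = 0.0334). Ogdh, at 256, 237 and 225 CPM against 194, 187 and 183 CPM, also passed in both fits, with −0.35 ± 0.077 (adjusted p = 0.00206) and −0.28 (adjusted p = 0.000718). Hk3, Gpi1, Pfkp, Gapdh, Pgls, Tkt, Cs, Idh3g and Ogdh thus were lower in AMPKβ1-/- BMDMs with and without PF and in both fits. Scaling by library size alone ended both calls of Pfkp (adjusted p = 0.275 with vehicle and 0.0990 with PF). Removal of AMPKβ1-/- PF library 3 also ended its call with PF (adjusted p = 0.0527). Rpe, in the pentose phosphate pathway, stood at 3.86, 3.56 and 5.85 CPM in WT PF and at 14.2, 9.27 and 10.9 CPM in AMPKβ1-/- PF BMDMs. The fitted log2 difference was 1.36 ± 0.26 (adjusted p = 0.00088), and 0.28 (adjusted p = 0.206) with the offset.

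Among the other control points, Pdk1, a kinase that switches off pyruvate dehydrogenase, stood at 26.0, 29.9 and 32.9 CPM in WT PF and at 41.1, 37.9 and 39.1 CPM in AMPKβ1-/- PF BMDMs. It was higher by 0.41 ± 0.12 on the log2 scale (adjusted p = 0.00932), and by 0.099 (adjusted p = 0.338) with the offset. With vehicle, Pdk1 stood at 30.5, 35.5 and 34.3 CPM in WT and at 30.7, 39.4 and 39.3 CPM in AMPKβ1-/- BMDMs (0.13, adjusted p = 0.368). Hk2 stood at 32.7, 33.4 and 36.5 CPM in WT PF and at 43.6, 44.3 and 53.2 CPM in AMPKβ1-/- PF BMDMs, with no overlap. The log2 fold change of Hk2 was 0.46 ± 0.16 (adjusted p = 0.0281), and 0.36 (adjusted p = 0.0371) with the offset. Removal of WT PF library 1 or 2 or of AMPKβ1-/- PF library 3 ended the call of Hk2 (adjusted p up to 0.115). Me1, at 6.00, 5.90 and 5.92 CPM against 7.84, 8.72 and 7.81 CPM, passed without the offset (0.45, adjusted p = 0.0158) and not with it (0.20, adjusted p = 0.273). Pcx stood at 10.2, 8.58 and 8.26 CPM in WT vehicle, 8.15, 7.02 and 6.46 CPM in WT PF, 6.84, 7.50 and 7.53 CPM in AMPKβ1-/- vehicle and 7.93, 6.83 and 5.30 CPM in AMPKβ1-/- PF BMDMs. It passed in none of the comparisons.

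**Figure D4:**
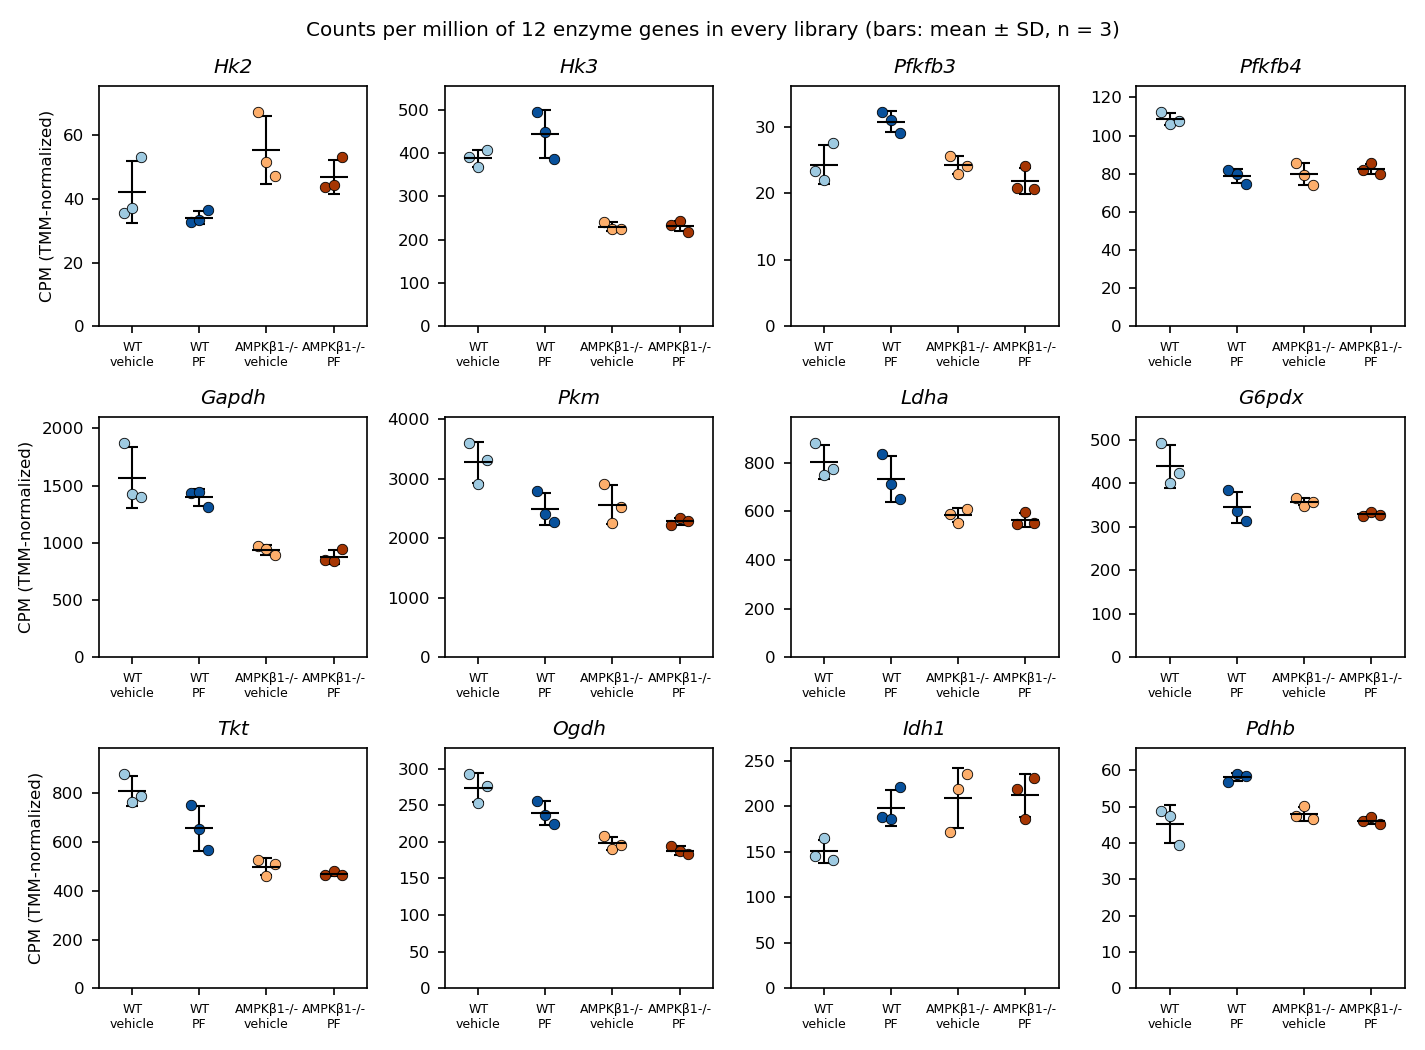
CPM (y axis, from 0) of 12 of the genes in the 4 groups (x axis). Points are libraries and bars the mean ± SD of 3 libraries. Hk3, Gapdh, Tkt and Ogdh are lower in all AMPKβ1-/- libraries than in any WT library of the same treatment, and Pfkfb4 stands at 106 to 112 CPM in WT vehicle and at 74.1 to 85.7 CPM elsewhere.

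The third comparison asked what PF did in WT BMDMs. Of the 48 genes, 4 were higher and 11 lower with PF, against 6.99% and 8.95% of all genes tested. Glycolysis held 1 higher and 7 lower genes, with a median log2 fold change of −0.27, and the pentose phosphate pathway 4 lower genes of 7, with a median of −0.30. Of the 23 genes of pyruvate entry and the TCA cycle, 3 were higher and none lower, with a median of 0.03, and the 13 mitochondrial enzymes of the cycle proper were not called. The median over all genes tested was 0.005. Libraries did not overlap for 21 of the 48 genes, against 32.2% of all genes. No member changed by more than 0.8 on the log2 scale, which 1.16% of all genes did upward and 0.370% downward. With the offset 3 members were higher and 5 lower, against 3.28% and 4.02% of all genes, and 5 of the 15 calls were kept, those of Pfkfb3, Pfkfb4, Aldoa, Eno1 and G6pdx. The offset medians were −0.14 for glycolysis and for the pentose phosphate pathway and −0.0091 for TCA genes, so the last changed sign. Scaling by library size alone gave 6 higher and 9 lower members, against 9.66% and 5.42% of all genes. The counts rest on single libraries, since removal of WT vehicle library 1, or of library 2 or 3 of the WT PF group, left at most 1 higher and 1 lower gene, and removal of WT vehicle library 3 left 2 and 6.

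Pfkfb4 and Pfkfb3, which set the level of fructose 2,6-bisphosphate, moved in opposite directions. Pfkfb4 stood at 112, 106 and 108 CPM with vehicle and at 82.0, 79.9 and 74.9 CPM with PF. The groups lay far apart, with a log2 fold change of −0.46 ± 0.077 (adjusted p = 0.0024), and −0.28 (adjusted p = 0.00569) with the offset. This call held in all 22 alternatives, with adjusted p-values up to 0.0265. Pfkfb3 stood at 23.4, 21.97 and 27.6 CPM with vehicle and at 32.2, 31.1 and 29.0 CPM with PF, without overlap. On the log2 scale the difference was 0.34 ± 0.11 (adjusted p = 0.0483), and 0.38 (adjusted p = 0.02) with the offset, and 12 of its 22 alternatives lost the call. Per kilobase, Pfkfb3 made up 13.96% ± 1.5 of the mRNA of the 2 genes with vehicle and 22.1% ± 0.14 with PF, and 18.1% ± 0.92 and 16.1% ± 0.77 in AMPKβ1-/- BMDMs.

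In the main line of glycolysis, Eno1 stood at 1571, 1233 and 1378 CPM with vehicle and at 1166, 1011 and 868 CPM with PF. This was a log2 difference of −0.46 ± 0.11 (adjusted p = 0.0141), and −0.23 (adjusted p = 0.0162) with the offset. Aldoa stood at 2723, 2120 and 2302 CPM with vehicle and at 1893, 1819 and 1667 CPM with PF, with −0.41 ± 0.097 (adjusted p = 0.0148) and −0.23 (adjusted p = 0.0224). In both genes every PF library was below every vehicle library. Pkm, at 2790, 2412 and 2274 CPM with PF, fell by 0.40 ± 0.10 on the log2 scale (adjusted p = 0.0222), but the offset left −0.15 (adjusted p = 0.145). Hk1, Gpi1 and Pfkl fell by 0.36, 0.35 and 0.44 and also lost the call with the offset. Ldha stood at 837, 714 and 649 CPM with PF and overlapped its vehicle libraries. Hk3 and Pgam1 did not pass (0.19 for both, adjusted p = 0.13 and 0.0953), but were called higher with the offset, at 0.43 (adjusted p = 9.03e-05) and 0.27 (adjusted p = 0.00211).

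G6pdx was the one pentose phosphate gene that fell in both fits. It stood at 384, 337 and 314 CPM with PF, below the lowest vehicle library at 400 CPM, with −0.35 ± 0.088 (adjusted p = 0.0199) and −0.23 (adjusted p = 0.0235) with the offset. Pgd stood at 864, 805 and 748 CPM with PF. The fitted log2 difference was −0.36 ± 0.097 (adjusted p = 0.025), and −0.20 (adjusted p = 0.071) with the offset. Tkt and Pgls fell by 0.30 and 0.37 and lost the call with the offset. Of these 4 calls, that of Tkt was the least stable, lost in 15 of 22 alternatives.

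At the entry of pyruvate into the cycle, PF went with higher mRNA of both subunits of pyruvate dehydrogenase E1 in WT BMDMs. Pdhb stood at 48.8, 47.5 and 39.3 CPM with vehicle and at 56.9, 59.1 and 58.5 CPM with PF, a log2 fold change of 0.36 ± 0.089 (adjusted p = 0.0173) and 0.16 (adjusted p = 0.22) with the offset. Pdha1, at 28.1, 39.0 and 37.8 CPM against 46.1, 45.8 and 56.5 CPM, rose by 0.50 ± 0.13 (adjusted p = 0.0223), with 0.24 (adjusted p = 0.086) under the offset. Idh1 stood at 189, 186 and 221 CPM with PF, above all vehicle libraries. The log2 fold change of Idh1 was 0.40 ± 0.12 (adjusted p = 0.0359), and 0.040 (adjusted p = 0.817) with the offset. Idh3a, at 19.1, 18.1 and 17.5 CPM with PF, did not pass (0.47, adjusted p = 0.0648), nor did Ogdh or Cs. Pdk1 gave −0.18 (adjusted p = 0.286), and with the offset was called lower at −0.36 (adjusted p = 0.00878).

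In AMPKβ1-/- BMDMs, edgeR called none of the 48 genes higher or lower with PF, against 0.0554% and 0% of all genes tested, and DESeq2 and limma-voom called none either. At an unadjusted p below 0.05 there were 2 of the 48, Pgd and Rpe, against 4.98% of all genes. Pgd stood at 656, 701 and 700 CPM with PF (−0.23 ± 0.097, adjusted p = 0.919), and Rpe gave 0.58 ± 0.25 (adjusted p = 0.928). G6pdx and Pgd were the 2 genes whose libraries did not overlap, against 14.5% of all genes. The medians were −0.07 for glycolysis, −0.10 for the pentose phosphate pathway and −0.03 for TCA genes. Among the genes called in WT, Pfkfb4 stood at 82.0, 85.5 and 79.98 CPM with PF and at 85.7, 79.6 and 74.1 CPM with vehicle. Pfkfb3 stood at 20.8, 24.1 and 20.6 CPM with PF and at 25.6, 22.9 and 24.1 CPM with vehicle, so that both genes overlapped between treatments.

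Whether the PF response differed between genotypes was tested as an interaction, the response in WT minus that in AMPKβ1-/- BMDMs. No member was called, against 0.176% of all genes with a higher and 0.240% with a lower response in WT. At an unadjusted p below 0.05 there were 7 of the 48, against 14.3% of all genes. The smallest adjusted p belonged to Pfkfb4, with a difference of −0.51 ± 0.11 (adjusted p = 0.0607). Next came Pdhb, at 0.42 ± 0.13 (adjusted p = 0.154), and Pfkfb3, at 0.48 ± 0.16 (adjusted p = 0.187). DESeq2 called 1 member lower, Pfkfb4 (adjusted p = 0.00362), and its adjusted p over all alternatives ran from 0.00362 to 0.191. With the offset 2 members, Hk3 (0.37) and Pgam1 (0.32), were called higher and Pfkfb4 (−0.37) lower, against 0.813% and 0.906% of all genes. The medians of the interaction were −0.19 for glycolysis, −0.22 for the pentose phosphate pathway and 0.01 for TCA genes, and −0.085, −0.099 and 0.02 with the offset. For the genes called with PF in WT, a difference from the response in AMPKβ1-/- BMDMs was thus not shown by edgeR with the 4 group means alone and no offset.

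Further genes of the 3 pathways were examined from lists that were also chosen with earlier results of these data known. For AMPKβ1-/- against WT with vehicle, their counts stand against 29.7% higher and 30.0% lower of all genes tested. The counts with the offset stand against 14.5% higher and 20% lower of all genes in that fit. Of 18 tested genes of glucose and lactate handling, 3 were higher and 8 lower in AMPKβ1-/- vehicle BMDMs (2 and 7 with the offset), among the latter Slc2a6, a hexose transporter, which went from a mean of 216 to 129 CPM (−0.75 ± 0.10, adjusted p = 6.65e-05). Slc2a6 was also lower with PF in WT, at a mean of 153 CPM (−0.50 ± 0.10, adjusted p = 0.0068), and passed with the offset in both. Of 7 further pentose phosphate genes, 3 were higher and 2 lower with vehicle (2 and 1 with the offset). Of 25 further genes of pyruvate and TCA metabolism, 5 were higher and 10 lower (3 and 8 with the offset). The lower ones included Sdhb and Sdhc, subunits of succinate dehydrogenase, which fell by 0.58 and 0.38 on the log2 scale. Both kept the call with the offset, while Sdha and Sdhd of the same list were called in neither fit. Of 21 regulators of these enzymes, 4 were higher and 9 lower with vehicle (3 and 4 with the offset). None of the 21 was called with PF in WT, against 6.99% higher and 8.95% lower of all genes. From WT vehicle to AMPKβ1-/- vehicle BMDMs, Hif1a, a hypoxia-inducible activator of glycolytic genes, went from a mean of 15.8 to 43.5 CPM. Its log2 difference was 1.46 ± 0.20 (adjusted p = 0.000109), and 0.40 (adjusted p = 0.00332) with the offset. Txnip, an inhibitor of glucose uptake, went in the same comparison from a mean of 1320 to 927 CPM (−0.51 ± 0.07, adjusted p = 7.16e-05). It gave −0.55 (adjusted p = 7.59e-07) with the offset.

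As a description, the promoters were searched for 3 short motifs on both strands. RefSeq promoter windows were found for 46 of the 48 genes. CACGTG (E-box) was in 10.3% of 29 glycolytic windows, 0% of 8 pentose phosphate windows and 13.3% of 30 TCA windows, against 7.15% of all promoters. The hypoxia-factor core, ACGTG or GCGTG outside CACGTG, was in 79.3%, 75% and 60%, against 40.4%. The core of the antioxidant response element, TGACNNNGC, was in 6.90%, 25% and 20%, against 12.4%. Among promoters of the tested genes the shares were 10.3%, 59.0% and 14.6%. Some genes have several windows. By gene, the E-box was in 16.7% of 18 glycolytic, 0% of 7 pentose phosphate and 9.52% of 21 TCA genes. For tested genes it was in 12.2%. The hypoxia-factor core was in 88.9%, 85.7% and 66.7%, against 65.2%. The antioxidant core was in 11.1%, 28.6% and 28.6%, against 17.3%. These matches describe the letters only. The following stretches lie upstream of annotated starts in GRCm38.p6 and are written in the direction of the gene. Those of Ldha, Pgk1, G6pdx and Ogdh also hold a hypoxia-factor core in lower case. All stretches carry in capitals the motif for which they are shown. They were chosen to show an instance in Ldha and Pfkfb3, 2 of the 3 glycolytic genes with an E-box (the other is Pfkm), in Pgk1 and Pgam1 with a hypoxia-factor core, in G6pdx with an antioxidant core, and in Ogdh with an E-box.
Ldha, chr7:46845736-46845781, plus strand: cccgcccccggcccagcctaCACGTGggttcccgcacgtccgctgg
Pfkfb3, chr2:11502118-11502163, minus strand: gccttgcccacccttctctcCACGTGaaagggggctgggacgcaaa
Pgk1, chrX:106186949-106186993, plus strand: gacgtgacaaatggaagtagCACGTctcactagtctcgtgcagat
Pgam1, chr19:41911737-41911781, plus strand: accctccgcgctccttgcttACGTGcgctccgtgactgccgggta
G6pdx, chrX:74428909-74428957, minus strand: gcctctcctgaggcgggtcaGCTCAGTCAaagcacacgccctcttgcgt
Ogdh, chr11:6292040-6292085, plus strand: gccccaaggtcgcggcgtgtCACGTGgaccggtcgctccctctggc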

How the data were processed

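RNA was sequenced from 12 libraries. The authors trimmed reads with Trim Galore, estimated counts with Salmon and tested with DESeq2; the genome build and versions are not given in the sources used here. The deposited table holds whole-number estimated counts per gene, without normalization. Column names give each library's group and a number, which no source ties to a pairing. Here edgeR 4.0.16 (R 4.3.3) fitted 4 group means by quasi-likelihood with robust dispersion to all libraries, after filterByExpr and TMM scaling. Adjusted p is Benjamini-Hochberg over all 10822 genes, with calls below 0.05. SE is the log2 fold change over the root of F. GC content and length came from GENCODE M21 (GRCm38) for 10785 tested genes, and the offset used natural splines of 5 degrees of freedom per library. A count of 0 allows 3 counts, 0.196 to 0.321 CPM, for counting error only. Replicate libraries differed by 2.19 to 18.5 times the counting variance. Named genes were up to 6 non-overlapping members of smallest p per comparison, with fixed control points. The members, lists and tests were chosen with earlier results of these data known. Comparisons share groups of libraries and are not independent. Scripts were tested on simulated data with the same dispersion for all genes and no GC trend between libraries. That test does not cover the GC slopes seen here. Alternatives were DESeq2 1.42.0, limma-voom (limma 3.58.1), other scalings and filters, each contrast alone, the offset, a log2 threshold of 0.8 and leaving out each library.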

Additional observations from a re-analysis of the deposited data

How the results depend on the processing

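Leaving out 1 library moved the counts of called members most for PF in WT, to 0 to 5 higher and 1 to 15 lower genes. Removal of WT vehicle library 1 left 1 and 1, of WT vehicle library 3 left 2 and 6, and of library 2 or 3 of WT PF left 0 and 1. The other ranges were 0 to 0 in both directions for PF in AMPKβ1-/-, 6 to 9 higher and 24 to 29 lower for AMPKβ1-/- against WT with vehicle, 3 to 6 (3 without WT PF library 1) and 17 to 26 with PF, and 0 to 0 and 0 to 1 for the interaction (1 without WT PF library 1 or AMPKβ1-/- vehicle library 1). DESeq2 gave 7 higher genes for PF in WT and 1 lower for the interaction. A fit to the libraries of the contrast alone gave 1 higher and 1 lower for PF in WT, where fewer libraries estimate the spread. Library size alone gave 16 lower with vehicle. With the GC and length offset there were 5 lower for PF in WT, 3 higher and 18 lower with vehicle, 3 higher with PF, and 2 higher and 1 lower for the interaction. Requiring a log2 fold change beyond 0.8 left 0 and 0 for PF in WT, 3 higher and 0 lower with vehicle, and 2 and 1 with PF. Among the calls, the offset changed the signs of Idh2 (0.015), Idh1 (−0.13), Rpe (−0.033), Pgam1 (0.010) and Pkm (0.060) with vehicle. It also changed that of Dld (−0.0058) with PF. Library size alone changed the sign of Suclg1 (0.0074) with vehicle. The cause was not tested. All other calls kept their direction in every alternative. Members that were not called could change sign, as Taldo1 and Pdk1 with vehicle did under the offset. Besides those signs, the offset ended 37 of the 78 calls, fits of the contrast alone 16 and library size alone 20. The columns carry numbers 1 to 3 in each group, but no source says that a number marks a shared mouse or day. Deviations from the group means correlated at −0.17 to 0.32 over the 12 pairs of the same number and at −0.39 to 0.32 over the 24 pairs of different numbers, so the numbers were not taken as a pairing. A fit with the column number as a replicate block, added after seeing the data, gave 1 lower gene for the interaction, Pfkfb4 (adjusted p = 0.049), ended 2 of 78 calls (Pfkfb3 with PF in WT and Suclg1 with vehicle) and moved no other count of called members by over 1.5 times. With 3 libraries a group, differences near the size of the SE given could not be resolved, and larger ones could also miss the threshold. Pdhb and Pfkfb3 in the interaction and Pgd with PF in AMPKβ1-/- BMDMs differed by well over their SE and were not called. A gene that was not called may thus still have changed. Rpe, Me1, Ldhb and Pcx rest on the lowest counts.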
